A study of Mus musculus with 6 samples.

Results

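The genes of the cytosolic ribosomal proteins were compared between brains of mice given oil palm phenolics (OPP), a phenolic extract of the oil palm, and brains of mice given distilled water. Members were the array probes whose gene symbol names a protein of the large (Rpl) or small (Rps) subunit of the cytosolic ribosome, including Rpsa and the stalk genes Rplp0, Rplp1 and Rplp2, and leaving out the Rps6k kinases and pseudogenes. They numbered 92 of the 24048 probes on the array and represented 74 of the 14776 named genes. Of these, 42 genes were of the large subunit and 25 of the small subunit. A further 6 were relatives of such genes whose symbols add an l, with or without a number after it (Rps27l, Rpl22l1, Rpl39l, Rpl3l, Rpl36al and Rpl7l1). The last 1 was Rps19bp1, which encodes a nucleolar protein that binds Rps19 and is not itself a ribosomal protein. Each of the 6 arrays held RNA of the brain of a BALB/c male, an inbred mouse strain, aged 12 weeks and kept on a normal diet. The OPP group (3 arrays) had drunk OPP, at 1500 ppm in gallic acid equivalents, over 6 weeks, and the control group (3 arrays) had drunk distilled water. According to the methods, samples that hierarchical clustering marked as outliers had been dropped, so that the spread between the 3 arrays is what remained, and the methods do not name the part of the brain that was extracted. Animals were put in cages of the same number as made up a group, and whether each group filled 1 cage is not stated. If it did, cage and treatment cannot be told apart.

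Each cytosolic ribosome joins a small subunit, which reads the messenger RNA, and a large subunit, which forms the peptide bond. Ribosomal proteins are made in matching amounts, and neurons use ribosomes in the cell body and in dendrites. Many of their messenger RNAs begin with a C followed by a run of pyrimidines, the terminal oligopyrimidine (TOP) motif, through which mTOR signalling controls their translation. An array measures the amount of the messenger RNA and not its translation.

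Start sites were read from the RefSeq promoter table of build GRCm38.p6, which matched 60 of the 74 members. Not matched were Rpl3, Rpl7, Rpl8, Rpl17, Rpl21, Rpl23a, Rpl29, Rpl30, Rpl32, Rpl36, Rplp1, Rps14, Rps20 and Rps29. Where a gene had several starts, the one with the longest pyrimidine run was taken. A run of 1 C and at least 6 further pyrimidines was searched on the strand that reads like the RNA. It had to begin within 15 bases of an annotated start. Such a run was found in 30 members (50%), against 19.0% of the 27025 genes in the table. Some of these runs end before the annotated start and so lie outside the annotated transcript, among them those of Rps27l, Rps15a, Rpl31 and Rpl13. A counted run is therefore not in itself a TOP motif. The letters CTTCCG, the core of the sites bound by ETS factors, were searched on both strands of the 300 bases around each start, and they occurred in 41 members (68.3%), against 17.1% of all genes. Both motifs can share letters. The pyrimidine run stood in 54.8% of the 31 large subunit genes and 45.5% of the 22 small subunit genes that matched. The windows below show 30 bases around a start for genes described with their values, and for Rps10 and Rpl28 as further examples of a run at the start, 5′ to 3′, with the pyrimidine run in capitals, and the last pair has none. A match is a description of the letters, and RefSeq starts can lie some bases from the start used in brain.
Rps27l, chr9:66946071-66946100, plus strand: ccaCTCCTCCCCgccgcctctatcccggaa
Rps27, chr3:90213634-90213663, minus strand: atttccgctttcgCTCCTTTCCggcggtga
Rps6, chr4:86857353-86857382, minus strand: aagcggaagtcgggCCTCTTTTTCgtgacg
Rps10, chr17:27635230-27635259, minus strand: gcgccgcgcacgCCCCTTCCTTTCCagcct
Rps9, chr7:3704026-3704055, plus strand: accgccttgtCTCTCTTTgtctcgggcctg
Rpl28, chr7:4792950-4792979, plus strand: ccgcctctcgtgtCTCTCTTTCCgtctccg
Rpl38, chr11:114668565-114668594, plus strand: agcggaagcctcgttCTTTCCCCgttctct
Rps23, chr13:90923107-90923136, plus strand: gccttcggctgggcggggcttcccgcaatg
Rpl5, chr5:107900513-107900542, plus strand: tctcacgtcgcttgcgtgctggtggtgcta

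The intensities included background, were scaled between arrays on probes of stable rank and were compared on the log2 scale with limma over all 7611 probes that were above background in at least 1 group. The number of probes above background on an array was between 7442 and 7903. One array, control replicate 2, was least like the rest of its group, with a correlation of 0.961 and 0.962 with the other controls over all tested probes, against 0.987 between those controls. The 5 tested granulocyte markers (of 6 listed) had a mean log2 level of 8.12 to 8.31 on the OPP arrays, against 12.09 in control replicate 2 and 9.07 and 9.37 in control replicates 1 and 3. Of these 5, only S100a8 was above background on all OPP arrays and Ltf was so on none, so that the OPP mean is largely background. Cerebellum markers (3 tested of 8) had a mean of 9.58 to 10.02 on the OPP arrays, against 9.12 in control replicate 2 and 10.99 and 10.58 in control replicates 1 and 3. Telencephalon markers (2 tested of 6) had means of 11.14 to 11.33 on the OPP arrays, against 10.59 to 10.89 in the controls, with no overlap. All 5 tested striatum markers (of 8) had log2 fold changes above 0. Their means were 10.23, 9.74 and 9.62 on the OPP arrays, against 8.98, 9.93 and 9.39 in the controls, so that the groups overlapped. Red cell markers (3 tested of 4) overlapped too, at 10.26, 11.03 and 10.16 on the OPP arrays, against 10.30, 11.45 and 10.72 in the controls. They were highest in control replicate 2. Neuron markers (4 tested of 7, all above background on every array) had means between 10.36 and 10.47 on all 6 arrays. This mean joins genes that moved apart. In control replicate 2 Stmn2 had its lowest value (2153), Tubb3 (485) and Syt1 (10736) their highest, and Map2 (363) neither. Astrocyte markers (3 tested of 5) and oligodendrocyte markers (4 tested of 5) all had log2 fold changes below 0, with array means that overlapped between the groups. In such bulk tissue, fewer cells of a type and less RNA per cell cannot be told apart.

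The ribosomal protein probes ranged from background to among the brightest probes of the array. Of the 92 member probes, 69 were above background in at least 1 group and were tested, and they represented 62 genes: 37 of the large subunit, 22 of the small subunit, Rps27l, Rpl7l1 and Rps19bp1. Of the 62 genes, 60 were above background on all 6 arrays, the exceptions being Rpl30 (3 arrays) and Rps19bp1 (5 arrays). The brightest probes belonged to Rpl41 (18889 to 23746), which encodes the shortest ribosomal protein, Rplp1 (15431 to 21075), a protein of the acidic stalk that recruits elongation factors, and Rps14 (13141 to 19495). The dimmest tested ones belonged to Rpl30 (229.0 to 296), Rps19bp1 (284 to 351) and Rps6 (303 to 394). Brightness also depends on the probe, so that it gives no order of transcript amounts between genes.

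**Figure D1:**
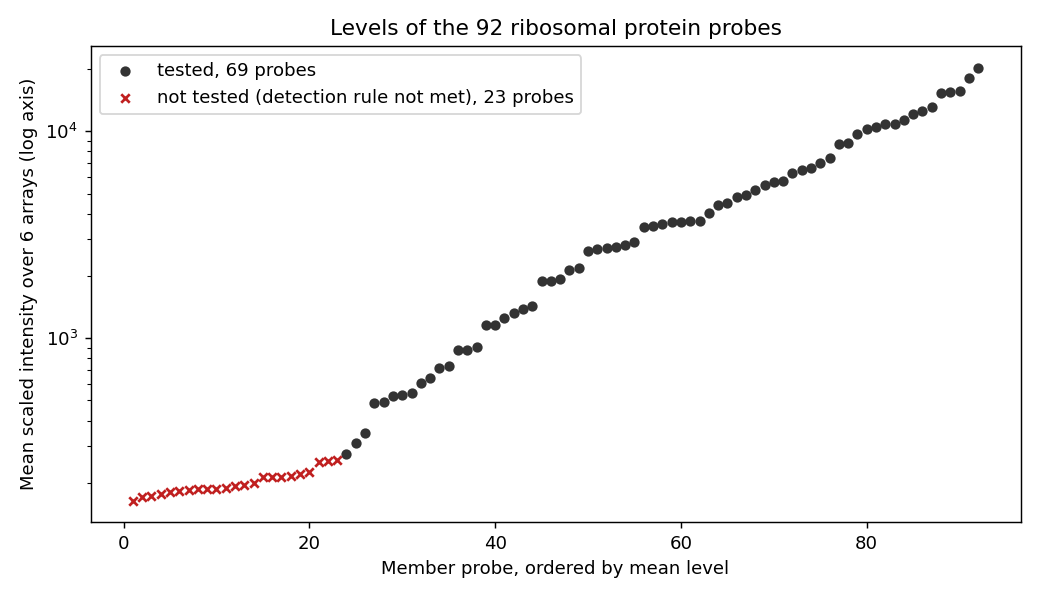
Mean scaled intensity (log axis) of each of the 92 ribosomal protein probes over the 6 arrays, in order of brightness, with circles for the 69 tested probes and crosses for the 23 that were not tested. The untested probes lie together at the dim end, between 147.7 and 296.9 on single arrays, and the brightest tested probe, of Rpl41, has group means of 20736 (OPP) and 19923 (control).

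The 23 untested probes had a median intensity of 192.1, beside 194.7 for all 16437 untested probes of the array. They left 12 genes without a test, and 11 of these were above background on no array. Among the 11 were 7 core ribosomal genes: Rplp0 and Rplp2, which encode stalk proteins, Rpsa, Rpl14, Rpl29, Rps19 and Rps24, of which human RPS19 and RPS24 are mutated in Diamond-Blackfan anaemia. The others were the relatives Rpl22l1, Rpl39l, Rpl3l and Rpl36al. Rpl4 exceeded background in OPP replicate 3 alone, with 263, 218 and 297 in the OPP group and 263, 259.9 and 251 in the controls. Core genes of this kind are used by every cell, and a probe at background gives no level of its gene. The same was seen within genes: Rpl37 had 1 probe at a mean of 13134 and 2 at background, the dimmest at 183, and Rpl23 had probes at means of 11315 and 187. Further genes of the family, among them Rps27a, Rpl18 and Rpl9, were not analysed here. Ribosomal protein genes have many near-identical processed pseudogenes, and whether a probe also binds their transcripts was not tested.

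No ribosomal protein gene passed the test of a difference between the brains of mice given OPP and those of the controls after adjustment. Of the 69 member probes, 0 passed an adjusted p of 0.05 from limma (lowest adjusted p = 0.987), as did 0.0131% of all tested probes (1 probe, of Hoxb5). Without adjustment, 0 member probes were higher at p under 0.05, against 1.71% of all tested probes, and 1 was lower (Rps27l), against 2.21%. The methods' t-test, which they name for behaviour and qRT-PCR data and not for array probes (for these they name the Illumina Custom error model), was run on the same values. Unadjusted, it passed 1 of the 69 member probes higher (Rps23) and 2 lower (Rps27l and Rpl36a). Over all 7611 tested probes it passed 146 higher and 204 lower. After adjustment it passed 0. All 3 OPP values lay above all 3 control values in 1 member probe, against 4.31% of all probes, and below them in 3, against 5.18%. For a single probe, an exact two-sided permutation test of 3 arrays against 3 cannot give a p under 0.1.

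Differences were small throughout the family. The log2 fold change, OPP over control, ran between -0.31 and 0.17 over the 62 genes, taking the brightest probe of each. Its median was -0.03, beside -0.00 over all 5809 tested genes. It was above 0 in 26 genes and below 0 in 36, but without scaling between the arrays, and likewise after quantile normalization, the split turned to 38 above and 24 below. Scaling also moved the median of all genes, which was 0.06 without it. In 60 of the 62 genes (96.8%) the fold change was within 0.2 of 0, beside 85.4% of all tested genes. The standard error had a median of 0.12 in the members and of 0.12 over all genes, and the 95% interval lay within 0.5 of 0 on both sides in 55 of the 62 genes. Changes of smaller size than these intervals were not detectable with 3 arrays in each group. The intervals are unadjusted, and larger changes need not pass after adjustment. Ncl, a gene of ribosome assembly, did not at a log2 fold change of 0.34 (adjusted p = 0.987 from limma).

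**Figure D2:**
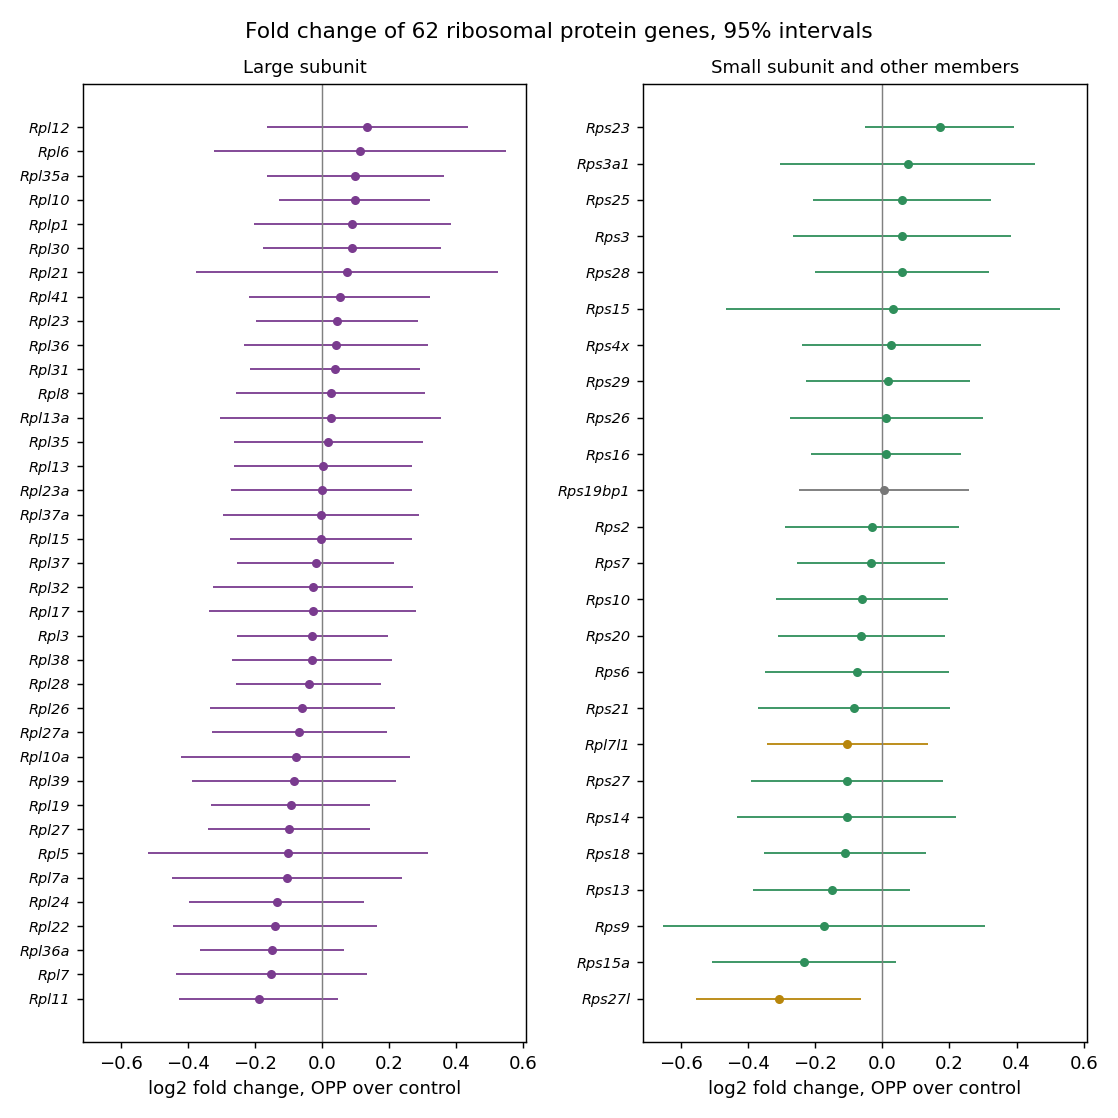
Log2 fold change, OPP over control, of the brightest probe of each of the 62 tested genes (points) with 95% intervals from limma (lines), the large subunit at left and the small subunit with Rps27l, Rpl7l1 and Rps19bp1 at right. The interval of Rps27l (-0.56 to -0.06) is the one that does not reach 0.

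Rps27l, a near relative of Rps27 and in human cells a target of p53, had the lowest fold change. Its scaled intensity was 1056, 1110.1 and 1169 in the OPP group, against 1459.8, 1457 and 1225 in the controls. All 3 OPP values were below all 3 control values, and control replicate 3 lay nearest to them. Means were 1112 ± 56.0 in the OPP group and 1381 ± 134 in the controls (SD, n = 3 each). The log2 fold change was -0.31 (standard error 0.11, unadjusted p = 0.0196 and adjusted p = 0.987 from limma). It stayed below 0 in all 18 alternative settings and passed unadjusted in 15, and it did not pass without scaling (-0.25), without control replicate 1 (-0.27) or without OPP replicate 1 (-0.27). The sign is weak evidence, because leaving out 1 array cannot turn it when the groups do not overlap. The settings of floor, filter and replicate block left the fold change itself as it was. Rps27 itself had a log2 fold change of -0.11.

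Rpl11, Rpl36a and Rps23 also had groups that did not overlap, and none of them passed unadjusted with limma. Rpl11, which with Rpl5 and 5S rRNA binds the p53 regulator Mdm2, measured 8914, 7818 and 7531 in the OPP group, against 9612, 9034 and 8954 in the controls. The highest OPP value was just under the lowest control value (log2 fold change -0.19, standard error 0.10, adjusted p = 0.987 from limma). Rpl36a measured 5861, 5864 and 6199 in the OPP group, against 6688, 6312 and 6879 in the controls (log2 fold change -0.15). Rps23, a small subunit protein next to the decoding centre, was the member with all OPP values above the controls. It measured 654, 666 and 620.5 in the OPP group, against 600.4, 589.7 and 534 in the controls (log2 fold change 0.17, standard error 0.10, adjusted p = 0.987 from limma).

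The other genes at the ends of the range overlapped between the groups. Rps15a, of the small subunit, measured 1139, 1014 and 1017 in the OPP group, against 1427, 1104 and 1212 in the controls (log2 fold change -0.23, standard error 0.12). Its control replicate 2 fell among the OPP values, and without that array the log2 fold change was -0.32, which passed unadjusted and not after adjustment (adjusted p = 0.383 from limma). Control replicate 1 was its highest value, and without that array the log2 fold change was -0.13 and did not pass. Rps13 measured 3027, 3319 and 3608 in the OPP group, against 3792, 3649.8 and 3584 in the controls (log2 fold change -0.15). The highest OPP value of Rps13 exceeded the lowest control value by little. At the upper end, Rpl12, at the base of the stalk, measured 827, 960.5 and 1065 in the OPP group, against 813, 991 and 793 in the controls (log2 fold change 0.14). Rpl6, Rpl35a and Rpl10, all of the large subunit, followed with log2 fold changes of 0.11, 0.10 and 0.10. Among the brightest genes the log2 fold change was 0.05 for Rpl41, 0.09 for Rplp1 and -0.11 for Rps14, and among the dimmest it was 0.09 for Rpl30 and 0.01 for Rps19bp1. None of these kept its size when 1 array was left out: Rplp1 ran between 0.00 and 0.23, Rpl41 was -0.05 without OPP replicate 3, Rps14 was 0.03 without control replicate 2, and Rpl30 and Rps19bp1 were -0.02 and -0.05 without control replicate 3. Likewise Rpl12 ran between 0.05 and 0.24, Rpl35a between 0.03 and 0.19, Rpl10 between 0.05 and 0.16 and Rps13 between -0.21 and -0.09. Rpl7l1, a relative of Rpl7, had one of -0.10. Rps6, the substrate of the S6 kinases downstream of mTOR, measured 303, 348 and 369 in the OPP group, against 363, 394 and 318 in the controls, and its log2 fold change was -0.08 (standard error 0.12).

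**Figure D3:**
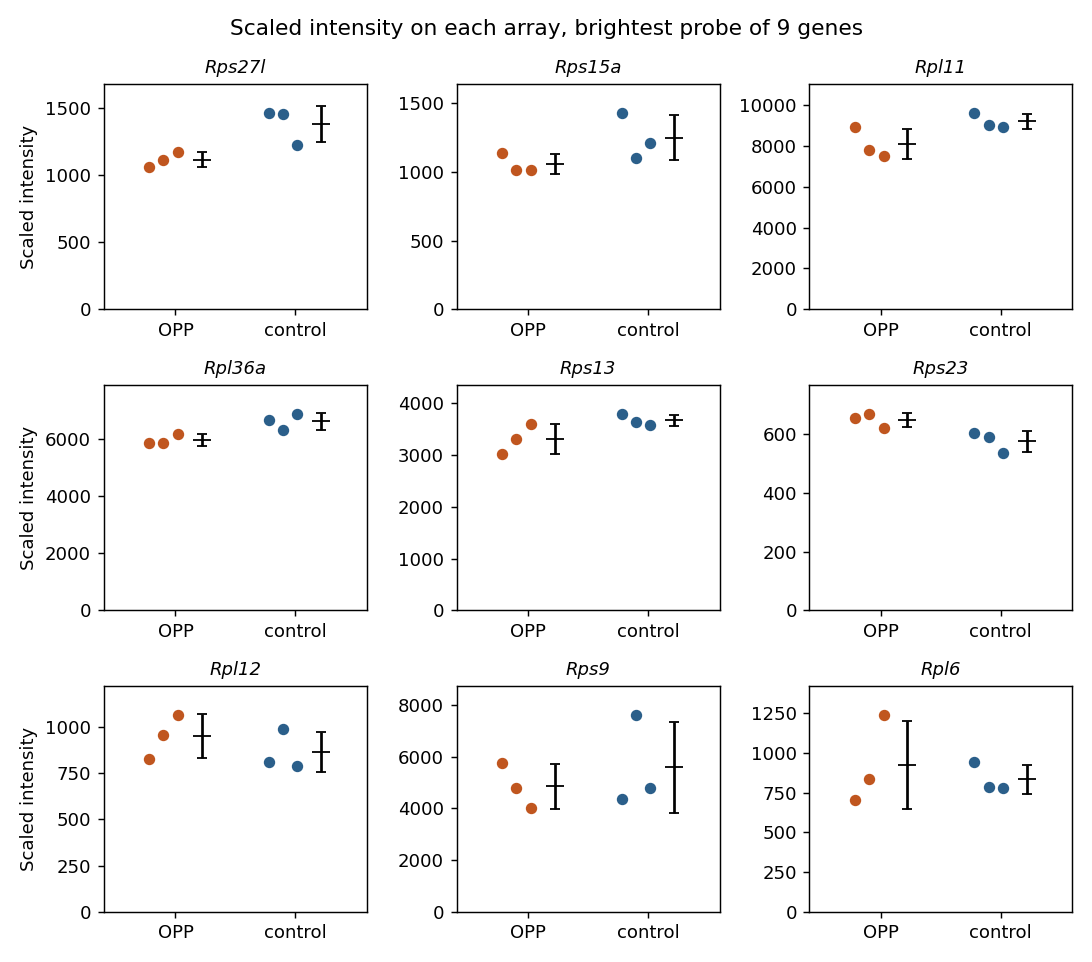
Scaled intensity of 9 ribosomal protein genes on each array (points), the OPP group left of the control group, with the mean and SD of each group as bars and a separate axis from 0 in each panel. Rps27l, Rpl11, Rpl36a and Rps23 have groups that do not overlap, while Rps9 has 1 high control array and Rpl6 has 1 high OPP array.

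The large and small subunit genes were set beside each other on each array. The mean log2 level of the 37 large subunit genes was 11.65, 11.74 and 11.77 in the OPP group, against 11.72, 11.83 and 11.67 in the controls. That of the 22 small subunit genes was 11.92, 11.96 and 11.98 in the OPP group, against 11.95, 12.11 and 11.89 in the controls. In both subunits control replicate 2 was the highest array and the groups overlapped. The large minus small difference was -0.27, -0.23 and -0.21 in the OPP group and -0.23, -0.28 and -0.23 in the controls, so that the groups overlapped here too. The median fold change was -0.02 in the large and -0.03 in the small subunit, a difference of 0.01 that ran between -0.01 and 0.04 over the alternative settings.

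**Figure D4:**
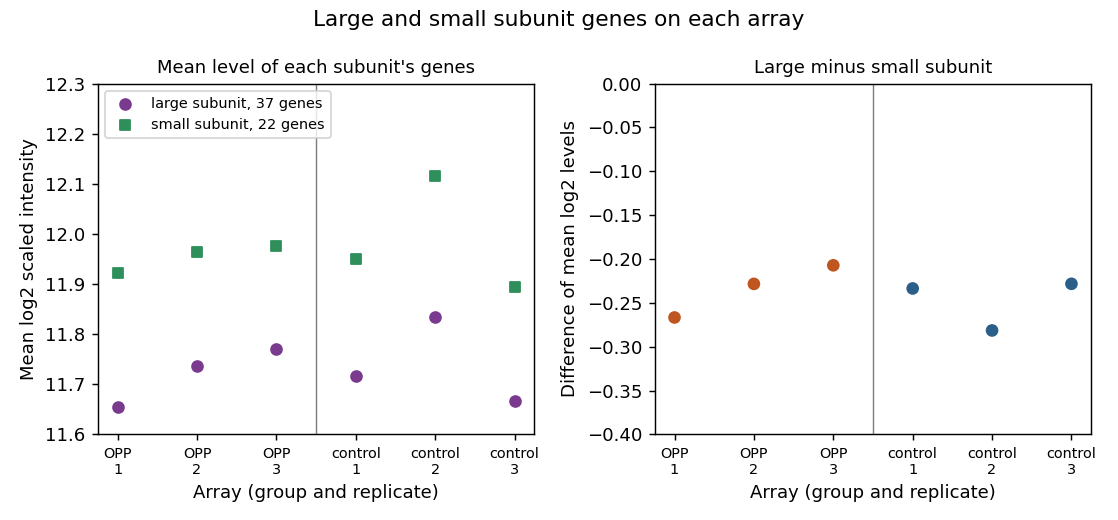
Mean log2 scaled intensity of the 37 large subunit genes (circles) and 22 small subunit genes (squares) on each array at left, and the large minus small difference at right, OPP arrays left of control arrays. Both subunits are highest in control replicate 2, and the difference stays between -0.28 and -0.21 on all 6 arrays.

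In many members 1 control array was the highest, and in many 1 OPP array was the lowest. Control replicate 2 was the highest of the 6 arrays in 30 of the 62 genes (48.4%), beside 17.8% of all tested genes, and it was so in 20 of 37 large and 10 of 22 small subunit genes. It lay above the mean of the other controls in 43 genes, by a median of 0.17 over the 62. The mean log2 level of all tested genes was 9.59 in control replicate 2, against 9.64 and 9.63 in control replicates 1 and 3. On the authors' background-subtracted values control replicate 2 was the highest array in 62.9% of the members, beside 26.6% of all tested genes. Without scaling, OPP replicate 3 was most often the highest array (54.8% of members, beside 52% of all genes). Control replicate 2 was then the highest in 29% of members, beside 11.8% of all genes. The granulocyte and red cell markers given above were highest in control replicate 2 and the cerebellum markers lowest, and their part in these levels was not tested. On the scaled values OPP replicate 1 was the lowest array in 27 of the 62 genes (43.5%), beside 16.3% of all tested genes. Control replicate 3 was the lowest in 17 (27.4%, beside 10.6%). Without control replicate 2 the median fold change of the members was 0.03, and 40 genes were above 0 and 22 below. Without OPP replicate 1 it was 0.01, with 32 genes above 0 and 30 below.

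Members did not all follow control replicate 2, as the genes with the widest ranges, chosen after their values were seen, showed. Over the 6 arrays the range of a gene had a median of 0.36 on the log2 scale, and it was over 0.5 in 8 genes. Rps9 measured 5751, 4771 and 4026 in the OPP group, against 4367, 7594 and 4782 in the controls. Rps15 measured 2886, 2943 and 2069 in the OPP group, against 2084, 3610 and 2190.1 in the controls. Both were highest in control replicate 2 and lowest in OPP replicate 3, as were Rps14 and Rpl10a. Rpl6 measured 704, 837 and 1236 in the OPP group, against 941, 786 and 777 in the controls. Rpl5 measured 2911, 3128 and 4715 in the OPP group, against 3605, 3377 and 4349 in the controls. Both were highest in OPP replicate 3 and lowest in OPP replicate 1. The log2 fold change of Rps9 was -0.17 (standard error 0.21), and it was 0.07 without control replicate 2. That of Rpl6 was 0.11 (standard error 0.19), and it was -0.12 without OPP replicate 3.

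**Figure D5:**
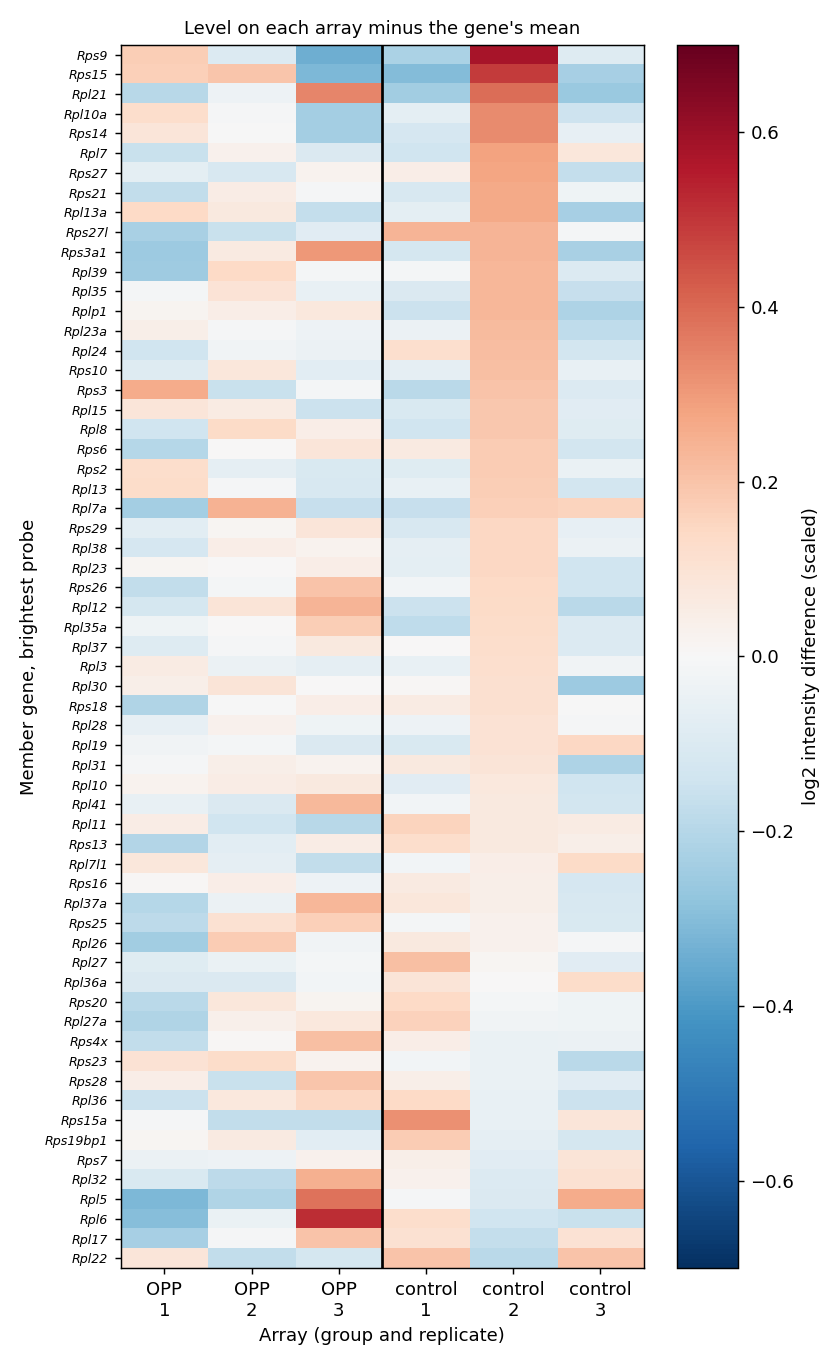
Log2 scaled intensity of each of the 62 tested genes on each array minus the gene's mean over the 6 arrays (colour scale), OPP arrays left of control arrays, genes ordered by their value in control replicate 2. Control replicate 2 is the highest array in 30 genes, and Rpl5 and Rpl6 near the lower end are highest in OPP replicate 3.

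Several genes were read by more than 1 tested probe, and the probes did not always move alike. Of the 12 genes with several probes, 6 had more than 1 that was tested. The brighter probe of Rps3, a protein at the entry of the messenger RNA channel, measured 4781, 3586 and 3952 in the OPP group, against 3503, 4578 and 3736 in the controls (log2 fold change 0.06). The dimmer one measured 1696, 1392 and 1203 in the OPP group, against 1105, 1319 and 1184 in the controls (log2 fold change 0.24, standard error 0.14). Both were highest in OPP replicate 1, and the groups overlapped in both. The probes of Rpl38 had log2 fold changes of -0.03 and -0.22, and those of Rpl13a of 0.03 and 0.05. The 3 probes of Rps9 had -0.17, -0.03 and -0.05. Control replicate 2 was the highest array for the first and second of these (7594 and 2875) but not for the third, where it measured 1390.2, against 1615 and 1227 in the other controls.

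Members with and without the pyrimidine run were set side by side. Of the matched and tested members, 23 held the run and had a median log2 fold change of -0.08 (6 above 0 and 17 below), and 26 did not and had one of 0.01 (14 above 0 and 12 below). The mean log2 level of members with the run minus that of members without it was 0.23, 0.25 and 0.11 on the OPP arrays, against 0.21, 0.36 and 0.23 on the control arrays. The groups overlapped, OPP replicate 3 was the lowest array and control replicate 2 the highest, and no test was made of this split. With CTTCCG the median was -0.02 over 36 genes, and without it -0.08 over 13.

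Few other genes of translation passed without adjustment, and none of those listed passed after it. At p under 0.05 unadjusted, 0 of 30 initiation factors, 0 of 9 elongation and termination factors and 0 of 18 genes of the mTOR and S6 kinase pathway passed in either direction. Over all tested probes, 1.71% were higher and 2.21% lower by the same rule. Of 38 genes of ribosome assembly, 2 were higher and 0 lower. Ncl, which encodes nucleolin, a main protein of the nucleolus, measured 639, 682 and 694 in the OPP group, against 533, 533 and 520.4 in the controls. Every OPP value of Ncl was above every control value (log2 fold change 0.34, standard error 0.09, unadjusted p = 0.00498 and adjusted p = 0.987 from limma). Rrp9, which encodes a protein of the U3 particle that processes ribosomal RNA, was higher by 0.25 on the log2 scale (standard error 0.10). Of 13 genes with TOP messenger RNAs outside the family, 1 was higher, the histone chaperone gene Nap1l1 (0.24, standard error 0.10), and 0 were lower. Among the 13, Eef1b2, Eef1d, Eef1g, Eef2, Eif3f, Eif3k, Eif4b and Pabpc1 were also counted with the factors above. Of 61 mitochondrial ribosomal protein genes, whose proteins form the separate ribosome of mitochondria, 0 were higher and 1 was lower (Mrpl10, -0.27, above background in 1 of 3 OPP arrays). Fau, which encodes the small subunit protein eS30 fused to a ubiquitin-like protein and has a symbol outside the family's pattern, differed by -0.09 on the log2 scale (standard error 0.17).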

How the data were processed

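RNA of 6 brains was hybridized to Illumina MouseRef-8 Version 1 arrays. With BeadStudio 1.5.1.3 (per the labels) the authors turned bead signals into an intensity and a detection p-value per probe, and these deposited values, not normalized, were used. The deposited value table was found to be a straight line of each array's intensities with 174.4 to 208.9 units of background removed, and it served as an alternative. Gene symbols came from the platform annotation. Intensities were scaled on rank-invariant probes (factors 0.902 to 1.06), raised to a floor of 10 and log2-transformed. Probes whose detection level averaged more than 0.99 in either group were tested with limma 3.58.1 in R 4.3.3, with Benjamini-Hochberg adjustment over all 7611 probes. The Illumina Custom error model of the methods was not run, and limma took its place. The fit was tested on simulated data. Replicates are brains numbered in the labels, and 3 arrays in each group limit the precision. A gene's value is that of its brightest tested probe. Named were members at an unadjusted p under 0.05, the 5 highest and 5 lowest fold changes, the 3 brightest and 3 dimmest, genes whose probes differ most, genes at background and a list of known genes, with others said to be chosen after their values were seen. The members and lists were chosen with earlier results of these data known. Alternatives changed the scaling, background, filter, weights, floor, replicate block, test and arrays.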

Additional observations from a re-analysis of the deposited data

How the results depend on the processing

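No member passed at an adjusted p under 0.05 under any of the 18 alternative settings or with the methods' t-test (named there for behaviour and qRT-PCR, not for arrays), and the lowest adjusted p was 0.383, without control replicate 2. The count of members lower without adjustment, 1 as reported, was 0 without scaling, 2 without a filter on detection (with a probe of Rpsa that was above background on no array), 4 with array weights and 2 with that t-test. It ran between 0 and 3 when 1 array was left out, with 0 without control replicate 1 and 3 without control replicate 2 (Rps15a, Rpl22 and Rps27l). The count of members higher, 0 as reported, was 2 with array weights (Rps3 and Rps23) and 1 with that t-test, and it ran between 0 and 1 when 1 array was left out, with 1 (Rps3) without OPP replicate 3. With array weights 279 probes were higher and 468 lower over the array, without control replicate 2 301 and 480, without a filter 470 and 502, and without scaling 147 and 71, against 130 and 168 as reported. By that t-test 146 probes were higher and 204 lower over the array. The median fold change of the members ran between -0.06 and 0.03, within 1 SD between arrays of the value reported, and it changed sign without scaling, with quantile normalization, with normexp background, with array weights, without control replicate 2 and without OPP replicate 1. Leaving out the scaling moves all genes alike, so the members' median minus that of all genes had to stay the same (-0.02). Over the other settings this difference ran between -0.06 (without control replicate 3) and 0.05 (without control replicate 2). It was also above 0 with quantile normalization (0.01), normexp background (0.02) and array weights (0.04), and without OPP replicate 1 (0.01). With normexp background and with array weights the genes above 0 numbered 38 and 40. With the replicate number as a block, 0 members were higher and 1 lower (98 and 140 over all probes). Same-numbered arrays deviated with correlations of -0.27, 0.05 and 0.17, so the numbers were not taken as a pairing. References of the scaling other than the probe means (the probe medians or control replicate 1) were tried after the data were seen and left both counts of members as reported. Of 25 named probes, 12 kept their sign in every setting. Signal over background limits the dim probes: on the authors' values Rpl30 had a log2 fold change of 0.37, against 0.09 as reported.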
